A study of Mus musculus with 18 samples.

Results

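The matrix genes described here are fibronectin (*Fn1*), tenascin C (*Tnc*), versican (*Vcan*), periostin (*Postn*), elastin (*Eln*), fibrillin 1 (*Fbn1*), fibrillin 2 (*Fbn2*), fibulin 5 (*Fbln5*), lysyl oxidase (*Lox*) and microfibril-associated protein 4 (*Mfap4*). They were chosen by name, and each of the 10 had 1 row in each of the 3 deposited tables of 23420 genes. Bulk RNA-seq of embryonic mouse lungs covered 3 experiments of 6 libraries, 3 from controls and 3 from mutants, or 18 in all. In the first, Vangl1-/-; Vangl2-/- lungs were compared with Vangl1-/- lungs at E12.5. Both groups thus carried the *Vangl1* alleles, a gene trap by the study's methods, and they differed in *Vangl2*. In the second, Wnt5af/f; Dermo1Cre lungs were compared with Wnt5af/+; Dermo1Cre lungs at E12.5. In the third, Wnt5af/f; Sox9Cre lungs were compared with Wnt5af/+; Sox9Cre lungs at E13.5. Every control in the last 2 experiments therefore carried the Cre and 1 floxed allele. Dermo1Cre acts in the mesenchyme and Sox9Cre in the epithelium, but the whole lung was sequenced in each case, so a level is an average over recombined and other cells.

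Fibronectin is laid down as fibrils that cells pull into place through integrins, and it serves as a template on which other matrix proteins assemble. Tenascin C, versican and periostin sit in or bind to that provisional matrix, which is rich wherever tissue is being shaped. Elastic fibers have a core of elastin on a scaffold of fibrillin microfibrils; fibulin 5 brings elastin to the scaffold, lysyl oxidase crosslinks it, and *Mfap4* is a microfibril-associated protein. In the developing lung these genes are mainly products of the mesenchyme, including airway and vascular smooth muscle.

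In GRCm38, the build of the deposited tables, *Fn1* lies on chromosome 1 (71585520 to 71653200, minus strand), *Tnc* on chromosome 4 (63959785 to 64047015, minus), *Vcan* on chromosome 13 (89655312 to 89742509, minus), *Postn* on chromosome 3 (54361109 to 54391037, plus) and *Eln* on chromosome 5 (134702593 to 134747323, minus). *Fbn1* lies on chromosome 2 (125300594 to 125507993, minus), *Fbln5* on chromosome 12 (101746565 to 101819055, minus) and *Mfap4* on chromosome 11 (61485431 to 61488900, plus). All 10 are protein-coding genes, and their values are counts over the exons of the whole gene. The longest protein-coding transcripts ran from 1.72 kb for *Mfap4* to 12.43 kb for *Vcan*, with *Fbn1* at 11.97 kb, *Fbn2* at 11.04 kb, *Fn1* at 8.31 kb, *Tnc* at 7.11 kb, *Fbln5* at 5.83 kb, *Lox* at 4.74 kb, *Eln* at 3.85 kb and *Postn* at 3.21 kb.

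RefSeq promoters (GRCm38.p6) were listed for 5 of the 10 genes, namely *Fbn1*, *Postn*, *Tnc*, *Fbln5* and *Vcan*. The 250 bases before the start were searched on both strands for 6 short motifs, none of which holds another. *Postn*, *Vcan* and *Fbn1* are shown because *Postn* had the largest differences outside the Vangl1/2 experiment, and *Vcan* and *Fbn1* varied together between libraries, as described below. Each is written 5′ to 3′ on the strand of the gene, ending at the base before the start, with TATAAA in capitals.
Postn: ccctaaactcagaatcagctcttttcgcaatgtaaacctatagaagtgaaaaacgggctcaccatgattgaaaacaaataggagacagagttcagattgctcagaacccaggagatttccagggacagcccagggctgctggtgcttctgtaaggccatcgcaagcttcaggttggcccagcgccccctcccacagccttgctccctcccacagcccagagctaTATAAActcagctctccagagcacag
Vcan: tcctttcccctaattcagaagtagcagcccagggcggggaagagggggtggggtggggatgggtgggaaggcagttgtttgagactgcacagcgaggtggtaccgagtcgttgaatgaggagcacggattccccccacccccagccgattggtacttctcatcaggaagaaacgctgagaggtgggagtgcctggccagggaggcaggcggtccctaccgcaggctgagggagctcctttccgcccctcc
Fbn1: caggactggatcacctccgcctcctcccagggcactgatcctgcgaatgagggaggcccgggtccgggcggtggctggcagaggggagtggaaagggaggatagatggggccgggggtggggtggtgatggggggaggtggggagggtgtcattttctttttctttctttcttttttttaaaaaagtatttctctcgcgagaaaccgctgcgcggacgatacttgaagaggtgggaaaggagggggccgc
The *Postn* stretch is chr3:54360857-54361106 on the plus strand, the *Vcan* stretch chr13:89742513-89742762 on the minus strand and the *Fbn1* stretch chr2:125506439-125506688 on the minus strand, 1555 bases inside the longest gene model of *Fbn1*. *Postn* held TATAAA, with its first base 26 bases before the start, and *Tnc* held it 126 bases before the start nearest to its gene model. The motif was found in 12.4% of 32851 mouse promoters of the same length. Neither *Vcan* nor *Fbn1* nor *Fbln5* held these letters in the window. The GC box letters GGGCGG were present in the *Tnc*, *Vcan*, *Fbn1* and *Fbln5* windows, against 32.7% of all promoters, and CCAAT in those of *Vcan* and *Fbln5*, against 33.8%. GGAATG (12.6% of all promoters), CAGAC (42.2%) and TGACTCA (4.46%) were in none of the 5 windows nearest to the gene models. GC content was 62.4% for *Vcan*, 59.2% for *Fbn1* and 65.2% for *Fbln5*, and 52% for *Postn* and 44.8% for *Tnc*, beside a median of 52.4% over all promoters.

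Values are normalized counts, that is, read counts per gene brought to a common depth within each table by 1 size factor per library. Between 15945393 and 19814346 reads per library lay on genes, and the lowest member value was 329, for *Tnc*. All 9 markers of lung epithelium and all 9 of lung mesenchyme were above 0 in every library. This alone does not single out lung, since all cardiomyocyte, neuron and glia markers were above 0 as well. *Vangl2* was at 86.5, 79.8 and 89.6 in the 3 Vangl1/2 mutants and at 277, 406 and 334 in their controls (log2 difference −1.96, adjusted p = 0.0318, limma). *Wnt5a* was at 472, 429.6 and 489 in Dermo1Cre controls and 317, 436 and 229.7 in Dermo1Cre mutants, where mutant 2 exceeded control 2, and it overlapped between groups in the Sox9Cre experiment as well. Control replicate 2 of the Vangl1/2 experiment was the highest of its 3 controls for all 10 genes, by a factor of 1.17 for *Mfap4* and of 1.87 to 2.91 for the other 9 over the mean of the remaining controls. For 8 of the 10 it also lay above every mutant. It differed from controls 1 and 3 beyond these 10 genes as well. A chi-square of the read counts of 2 libraries, averaged over genes with enough reads, was 53.5 for controls 1 and 2 and 80.6 for controls 2 and 3. For controls 1 and 3 it was 10.7. This measure cannot say which controls were unusual. With all 18 libraries scaled jointly, *Fbn1* was at 2877 and 2060 in controls 1 and 3, 6040 in control 2 and 5199 to 6302 elsewhere. *Fn1* was at 5368 and 4271, 11143, and 8460 to 14978 in the same order. *Eln* and *Mfap4* went otherwise. *Eln* was at 2700 and 2358 in controls 1 and 3, near the mutants at 2618 to 3345. *Mfap4* was highest of all in control 2, at 4722. The Vangl1/2 results are therefore given with and without control 2, and a fit without it keeps controls 1 and 3. The labels do not say whether libraries of a group came from separate embryos, and p-values measure the spread between these libraries.

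**Figure D1:**
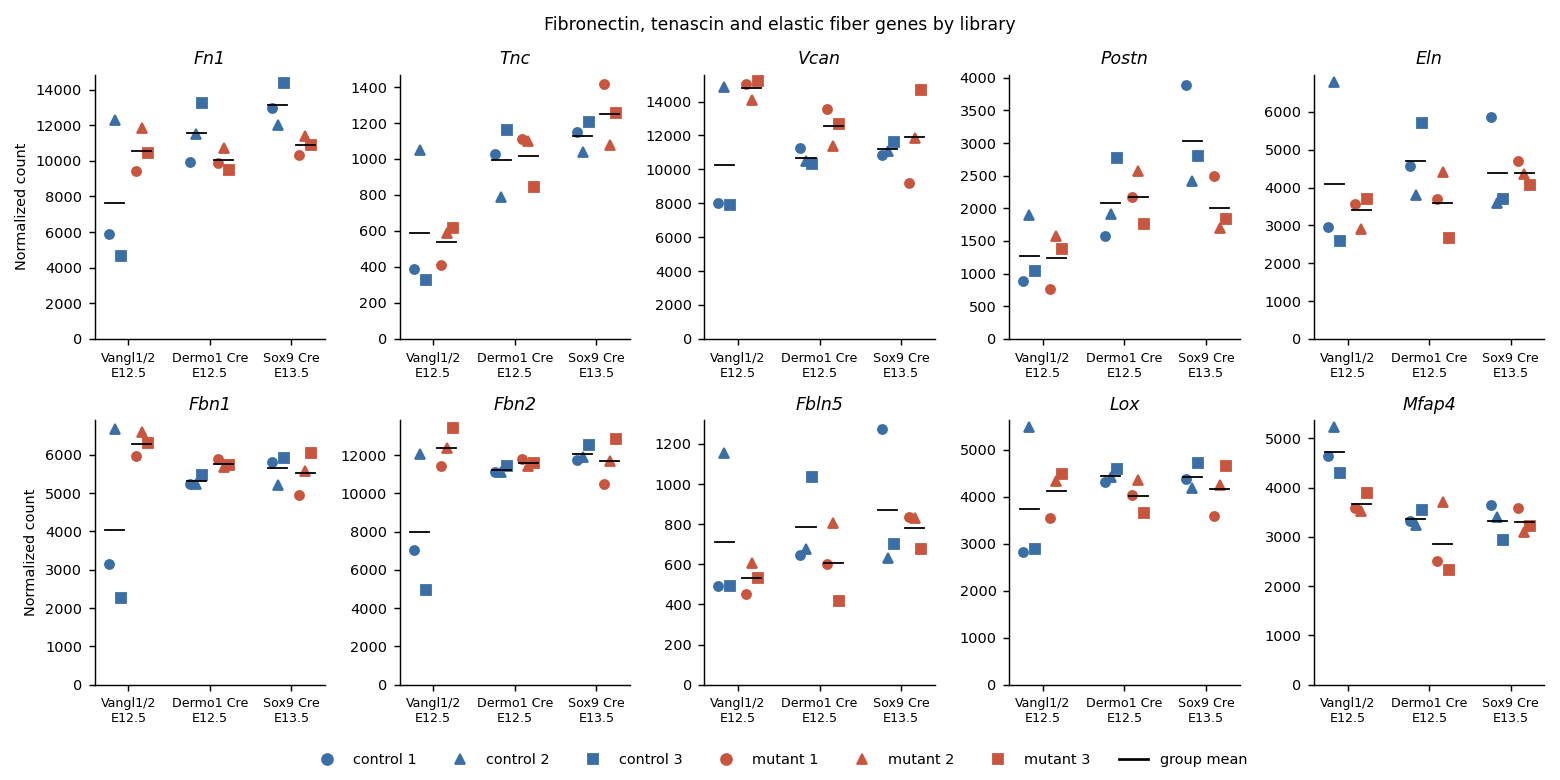
Normalized counts of the 10 genes (y axis of each panel, from 0) in the 18 libraries, by experiment, with blue for controls, red for mutants, a marker shape per replicate number and a bar for the group mean of 3 libraries. Control replicate 2 of the Vangl1/2 experiment is the highest control in every panel, and the Dermo1Cre values of Fbn1 and Fbn2 lie close together.

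Levels of different genes were compared per kb of the longest transcript, with all 18 libraries scaled jointly. In the Dermo1Cre controls, *Mfap4* had the highest level at 2077 ± 99.4 normalized counts per kb (mean ± SD, n = 3). It was followed by *Fn1* at 1478 ± 212, *Eln* at 1295 ± 264 and *Fbn2* at 1078 ± 15.7. Next came *Lox* at 994 ± 30, *Vcan* at 914 ± 44.9 and *Postn* at 690.1 ± 202. *Fbn1* stood at 472 ± 12.2, below *Fbn2* in every library, and *Tnc* and *Fbln5* were lowest at 148 ± 28.1 and 143 ± 39.1. In this order the ranges of 4 pairs of neighbours overlapped, those of *Fn1* with *Eln*, *Eln* with *Fbn2*, *Vcan* with *Postn* and *Tnc* with *Fbln5*. Among 13422 genes with a transcript length, *Mfap4* ranked 457 from the top and *Fn1* 716, while *Fbln5* ranked 6989, near the middle. *Mfap4* was first in all 6 groups, whereas *Postn* moved from rank 7 in the Dermo1Cre controls to rank 5 in the Sox9Cre controls, where its range overlapped those of both neighbours.

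**Figure D2:**
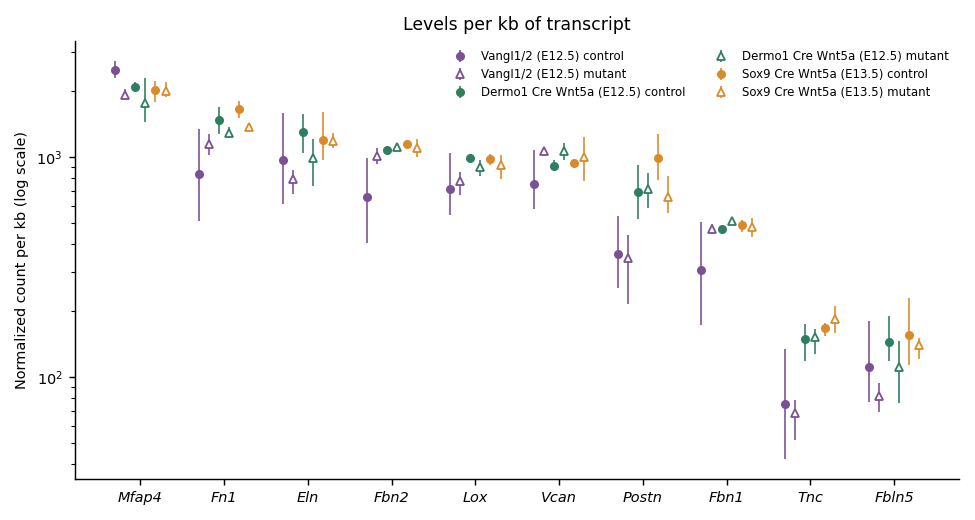
Jointly scaled normalized counts per kb of transcript (log scale) of the 10 genes in the 6 groups, with filled circles for controls, open triangles for mutants and bars from the lowest to the highest of 3 libraries. Mfap4 is the highest of the genes in each group, and Tnc and Fbln5 are the lowest at around 68.1 to 184 per kb.

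The Vangl1/2 experiment asks what the loss of *Vangl2*, a core planar cell polarity protein, does to lungs that already lack *Vangl1*. None of the 10 matrix genes passed the test at E12.5. The 4 members with the longest transcripts had higher means in mutants, with log2 differences of 0.80 for *Fbn1*, 0.73 for *Fbn2*, 0.60 for *Fn1* and 0.59 for *Vcan*, while *Tnc*, the next in length, was at 0.05. *Mfap4*, which has the shortest transcript, had a lower mean, with a difference of −0.36. The controls were widely spread, and control replicate 2 lay with or above the mutants for all of these genes. The test was limma on log2(normalized count + 1), here and in all comparisons that follow, with p-values adjusted over all genes tested.

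*Fn1*, the fibril-forming ligand of integrins, was at 5870.4, 12323 and 4670.3 in Vangl1-/- controls and at 9457, 11822 and 10447 in mutants. Controls 1 and 3 lay below all mutants and control 2 above all of them. The log2 difference was 0.60 (SE 0.32, adjusted p = 0.292).

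*Vcan*, a large chondroitin sulfate proteoglycan that binds hyaluronan, was at 7997, 14852 and 7896 in controls and 15013, 14097 and 15227 in mutants. Its mutant values were close together, and control 2 fell among them. The log2 difference was 0.59 (SE 0.23, unadjusted p = 0.0321, adjusted p = 0.233).

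*Fbn1*, the main fibrillin of mature microfibrils, was at 3146, 6679.9 and 2252 in controls and 5968, 6599 and 6309 in mutants, a log2 difference of 0.80 (SE 0.34, adjusted p = 0.24). *Fbn2*, the fibrillin that predominates in embryonic tissue, was at 7019, 12062 and 4927 in controls and 11404, 12375 and 13389.5 in mutants, a difference of 0.73 (SE 0.28, adjusted p = 0.233). For both fibrillins controls 1 and 3 were below all mutants, and control 2 was above all of them for *Fbn1* and between them for *Fbn2*.

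*Mfap4* was the only member whose groups did not overlap, at 4632, 5221 and 4301 in controls and 3589.7, 3527 and 3889.7 in mutants. All 3 mutants lay below all 3 controls, with a log2 difference of −0.36 (SE 0.10, unadjusted p = 0.00788, adjusted p = 0.233). Groups that did not overlap, with the mutant lower, were found for 8.68% of the 14303 genes tested.

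*Eln* was at 2953, 6779.6 and 2579 in controls and 3564, 2914 and 3709.5 in mutants, with control 2 far above all 5 other libraries. *Fbln5* was likewise highest in control 2, at 491, 1156 and 493, with mutants at 453, 606 and 533. *Lox*, the copper enzyme that crosslinks elastin and collagen, was at 2817, 5489 and 2895 in controls and 3540.4, 4331 and 4487 in mutants. *Tnc*, an anti-adhesive glycoprotein of the provisional matrix, was at 390.4, 1047 and 329 in controls and 409, 591 and 615 in mutants, and *Postn*, a fasciclin-domain protein of the mesenchymal matrix, at 884, 1903 and 1039 in controls and 769, 1574 and 1385 in mutants. In all 5 the groups overlapped. Their log2 differences, with the half-width of the 95% interval, were −0.14 ± 0.75 for *Eln*, −0.31 ± 0.72 for *Fbln5*, 0.21 ± 0.57 for *Lox*, 0.05 ± 0.92 for *Tnc* and −0.02 ± 0.77 for *Postn*. All 5 intervals included 0.

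No member was called in the Vangl1/2 comparison by limma, edgeR or DESeq2, and 1 gene of all tested was called by limma (0.00699%). At an unadjusted p under 0.05, limma had 3 members higher and 1 lower, against 12% and 8.56% of all genes, edgeR had 0 higher and 1 lower, and DESeq2 3 higher and 1 lower. Over all 14303 genes, edgeR had 1335 higher and 1557 lower at that level, and DESeq2 1578 and 1450. The median log2 difference of the 10 was 0.13, and that of all genes −0.01.

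These differences moved with transcript length. Across 13437 genes, the Vangl1/2 log2 difference and the length of the longest transcript had a Spearman rho of 0.716, as a description over genes. The median difference was 0.47 for the 1207 genes with transcripts of at least 7 kb and −0.28 for the 3260 under 2 kb. With that trend removed from each library, the differences were 0.27 for *Fbn1*, 0.22 for *Fbn2*, 0.18 for *Fn1*, 0.05 for *Vcan* and −0.13 for *Mfap4*, and the member with the smallest unadjusted p was then *Fbln5*, at −0.57 (unadjusted p = 0.0404, adjusted p = 0.588). The summed markers of lung mesenchyme were also highest in control 2, at 77994, 132154 and 60071 in controls against 97744, 123542 and 110652 in mutants, with 8 of its 9 genes higher on average in mutants and none at 0. Most of that sum came from *Col1a1*, *Col1a2* and *Col3a1*, which are matrix genes themselves, with *Col1a1* at 16896, 35259.7 and 9293 in controls. *Foxf1*, *Tcf21* and *Wnt2*, which encode regulators and a ligand of lung mesenchyme, were lowest in control 2 among the controls, with *Foxf1* at 3350.4, 3129 and 3816, *Tcf21* at 1859, 1779.9 and 1884 and *Wnt2* at 2266, 1861 and 2961. *Tbx4*, *Tbx5* and *Pdgfra* of the same list went the other way and were highest in control 2. In controls *Tbx4* was at 3770, 3976 and 3514, *Tbx5* at 2837, 3431 and 2651 and *Pdgfra* at 2785, 4205 and 2559. The part of the mesenchyme markers in the result was not tested. In bulk RNA, fewer cells of a type and less RNA per cell cannot be told apart.

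Without control replicate 2, 8 of the 10 members passed the adjusted threshold, beside 43.2% of all genes. That library was the highest control for all 10 members, so leaving it out raises each of their differences by construction. Of the members 7 were higher and 1 lower, and of all genes 21.5% were higher and 21.7% lower. The differences were then 1.24 for *Fbn1*, 1.07 for *Fbn2*, 1.01 for *Fn1*, 0.89 for *Vcan*, 0.56 for *Tnc*, 0.52 for *Lox*, 0.29 for *Eln* and −0.28 for *Mfap4*. With that library left out and the length trend removed as well, an alternative chosen after the data were seen, 2 members passed, *Fbn1* at 0.49 (adjusted p = 0.0162) and *Fn1* at 0.42 (adjusted p = 0.0347), beside 11.2% of all genes, of which those higher made up 4.56% of the genes tested. *Mfap4* stood at 0.04 there (adjusted p = 0.797).

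**Figure D3:**
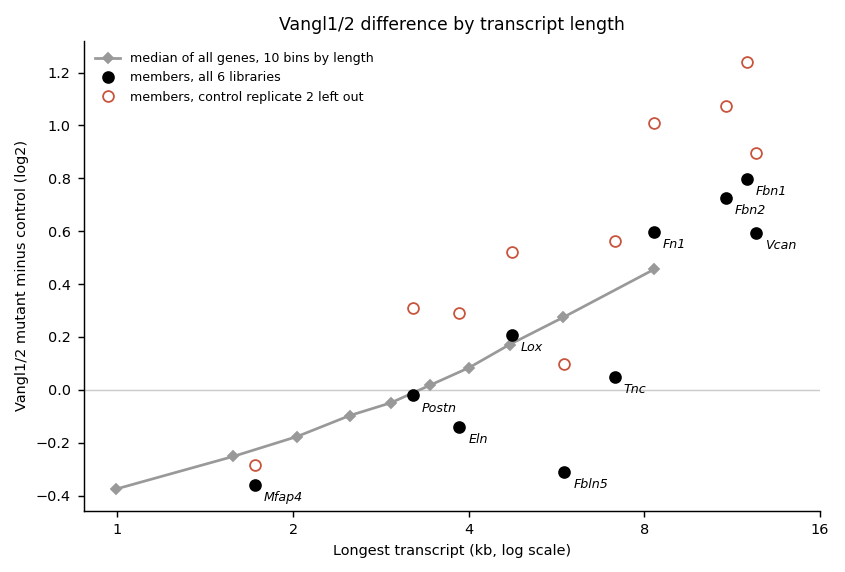
Vangl1/2 mutant minus control log2 difference (y axis) against the longest transcript (kb, log scale). Grey diamonds are medians of all genes in 10 bins by length, black points the 10 matrix genes with all 6 libraries, and open red circles the same genes without control replicate 2; Vcan, Fbn1, Fbn2 and Fn1 sit at the long end at 0.59 to 0.80 and Mfap4 at the short end at −0.36.

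In the Dermo1Cre experiment, which asks what the mesenchyme's own *Wnt5a* contributes, none of the 10 matrix genes passed the adjusted test at E12.5. *Vcan*, *Fbn1* and *Fbn2* were higher in all 3 mutants than in any control, by log2 differences of 0.23, 0.12 and 0.05. *Eln*, *Fbln5*, *Mfap4*, *Fn1* and *Lox* had lower mutant means, with log2 differences of −0.40, −0.39, −0.27, −0.19 and −0.15, in groups that overlapped. Groups that did not overlap with the mutant higher were found for 7.65% of all genes.

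*Vcan* was at 11269, 10502 and 10307 in Dermo1Cre controls and 13543, 11389 and 12664 in mutants (SE 0.064 on the log2 scale, unadjusted p = 0.0058, adjusted p = 0.324). It was the only member that DESeq2 called in any of the mutant comparisons, at a log2 difference of 0.23 (adjusted p = 0.0139), where DESeq2 called 0.707% of all genes, with adjusted p = 0.325 by edgeR. Mutant 2 was the lowest mutant and stood only just above the highest control.

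*Fbn1* was at 5245, 5229 and 5479 in controls and 5885, 5692 and 5739.8 in mutants (unadjusted p = 0.0117, adjusted p = 0.375). *Fbn2* was at 11136, 11095 and 11403 in controls and 11796, 11435 and 11582 in mutants (unadjusted p = 0.21, adjusted p = 0.674). These were the most even values of the group, with a coefficient of variation of 2.64% and 1.49% among controls. The ratio of *Fbn1* to *Fbn2* was 0.471, 0.471 and 0.481 in controls and 0.499, 0.498 and 0.496 in mutants, a log2 difference of 0.0688. All mutants lay above all controls, and the two-sided exact permutation p was 0.1, the smallest that 3 against 3 can give. In the Vangl1/2 and Sox9Cre experiments the ratio differed by 0.0709 (exact p = 0.7) and 0.0187 (exact p = 0.8) on the log2 scale.

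The Dermo1Cre log2 difference and transcript length had a Spearman rho of 0.247 across 13422 genes. With the trend removed, *Vcan* stood at 0.12, *Fbn1* at 0.02 and *Fbn2* at −0.05, so that both fibrillins were close to 0. For the genes with lower means the same step left *Eln* at −0.40, *Fbln5* at −0.44, *Mfap4* at −0.22, *Fn1* at −0.28 and *Lox* at −0.17.

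*Eln*, which encodes the soluble precursor of the elastic core, was at 4579, 3799.8 and 5709 in controls and 3706, 4400.3 and 2672 in mutants (log2 difference −0.40, SE 0.18, adjusted p = 0.499). *Fbln5* was at 647, 677 and 1034 in controls and 602, 804 and 418 in mutants, and *Mfap4* at 3318, 3236 and 3548 in controls and 2515, 3717 and 2334 in mutants. In all 3 genes mutant 2 was the highest mutant, within the range of the controls for *Eln* and *Fbln5* and above all of them for *Mfap4*, while mutants 1 and 3 were below all controls.

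For the markers of airway and vascular smooth muscle, mutants 1 and 3 were below all controls as well. Their sum was 13019, 11070.2 and 15469 in controls and 7394, 11905 and 7644 in mutants, with mutant 2 inside the range of the controls, all 7 markers lower on average in mutants and none at 0. In the Vangl1/2 experiment the sum was 8320.2, 10969.5 and 12304 in controls and 6522, 6784 and 9702 in mutants, and *Eln* was highest in control 2, which was not the highest of that sum. In the Sox9Cre experiment the sum was 10729.9, 13368 and 11371 in controls and 10850.5, 12485 and 11915 in mutants, and *Eln* was highest in control 1, the library with the lowest sum. The part of smooth muscle in the Dermo1Cre differences was not tested. Without mutant replicate 2, the difference was −0.47 for *Mfap4* (adjusted p = 0.0459), the 1 member then called beside 0.0350% of all genes, −0.56 for *Eln* (adjusted p = 0.235) and −0.61 for *Fbln5* (adjusted p = 0.269). Mutant 2 was singled out after these values were seen, and leaving out the highest mutant lowers the mutant mean by construction. With each library left out in turn, the difference ran from −0.47 to −0.14 for *Mfap4* (adjusted p from 0.0459 to 0.864). It ran from −0.56 to −0.20 for *Eln* and from −0.61 to −0.14 for *Fbln5*.

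**Figure D4:**
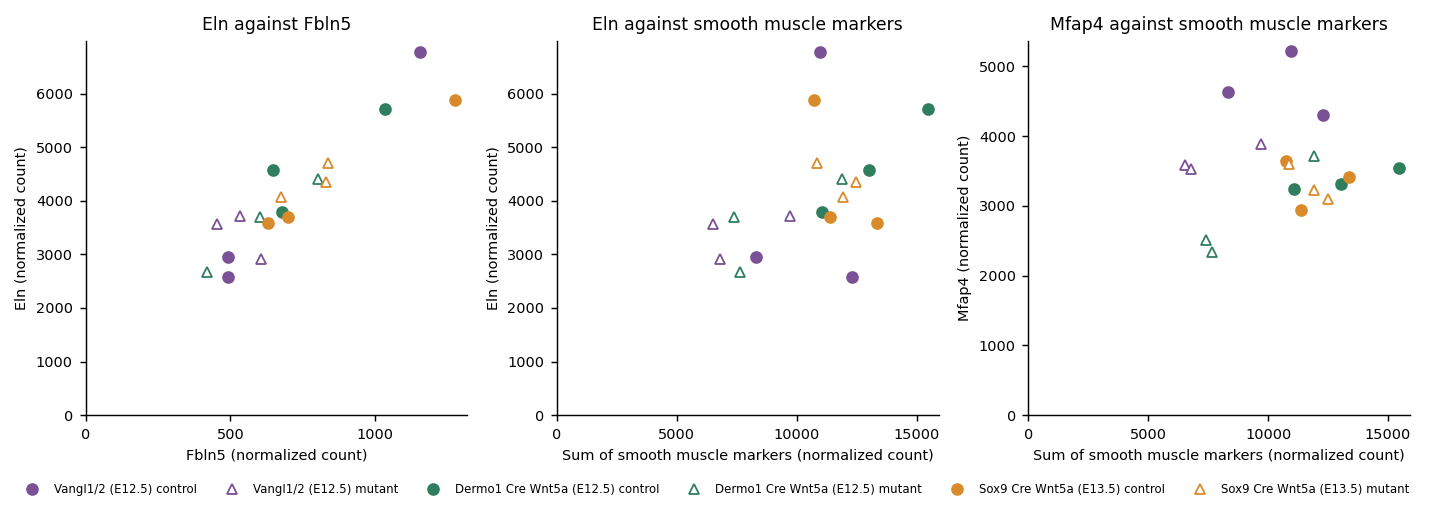
Normalized counts of Eln against Fbln5 (left), and of Eln (middle) and Mfap4 (right) against the sum of 7 smooth muscle markers, with 1 point per library, filled circles for controls, open triangles for mutants and a color per experiment. Eln and Fbln5 lie along 1 rising band over the 18 libraries, and Dermo1Cre mutants 1 and 3 have the lowest Mfap4 values, at 2515 and 2334, with marker sums of 7394 and 7644.

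*Fn1* was at 9939, 11499 and 13277 in Dermo1Cre controls and 9904, 10739 and 9514 in mutants. Control 3 was the highest, and control 1 lay among the mutants. The log2 difference was −0.19 (SE 0.092, adjusted p = 0.508). Cardiomyocyte markers, of which 9 of 9 had lower means in mutants and none was at 0, summed to 1222, 6581 and 20445 in controls and 2804, 4284 and 762 in mutants, with control 3 highest there as well. Neuron markers summed to 409.8, 376 and 696 in controls and 883, 2022 and 2129.97 in mutants, with 6 of 6 higher, and lung epithelium markers to 17801, 17389 and 17111 in controls and 16231, 16266 and 16199.9 in mutants, with 8 of 9 lower, and neither sum overlapped between groups. The part of these markers in the results was not tested.

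*Lox* was at 4314, 4411 and 4588 in controls and 4029.6, 4349.7 and 3642 in mutants (unadjusted p = 0.0353, adjusted p = 0.47), and mutant 2 exceeded control 1. *Tnc* was at 1029, 789.9 and 1160.3 in controls and 1110.2, 1102 and 845 in mutants, and *Postn* at 1578, 1906 and 2764 in controls and 2167, 2566 and 1765 in mutants. Neither separated the groups, with differences of 0.04 ± 0.32 for *Tnc* and 0.08 ± 0.42 for *Postn* (95% interval).

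By limma and edgeR, 0 members were called in the Dermo1Cre comparison, in which limma called 0.0140% of 14277 genes. At an unadjusted p under 0.05, limma had 2 members higher and 1 lower, against 5.42% and 4.76% of all genes, edgeR 2 and 2, and DESeq2 2 and 1. Over all 14277 genes, edgeR had 747 higher and 711 lower at that level, and DESeq2 582 and 409. The median log2 difference was −0.05 over the members and 0.00071 over all genes.

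Sox9Cre targets *Wnt5a* in the epithelium, which meets this matrix across the basement membrane. At E13.5 *Postn* and *Fn1* had lower means in the Sox9Cre mutants, with log2 differences of −0.59 and −0.26, and the other 8 genes differed by no more than 0.14. Neither passed the adjusted test, in which no gene of 14293 was called by limma.

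*Fn1* was at 12984, 11994 and 14368 in Sox9Cre controls and 10351, 11417 and 10913 in mutants. All mutants lay below all controls, as they did for 4.36% of all genes. The difference of −0.26 had an SE of 0.073 (unadjusted p = 0.006, adjusted p = 1.0), and it was −0.26 with the length trend removed.

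*Postn* was at 3894, 2423 and 2801 in controls and 2492, 1699.9 and 1837 in mutants. Control 1 was the highest library, and mutant 1 just exceeded control 2. The difference was −0.59 (SE 0.19, unadjusted p = 0.0127, adjusted p = 1.0).

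Some marker lists of other tissues had lower sums on average in mutants, while that of cartilage had higher ones. The 5 mesothelium markers summed to 3834, 3257 and 3773 in Sox9Cre controls and 2742, 3199 and 2647 in mutants, with 4 of 5 lower on average and none at 0. Cardiomyocyte markers summed to 5248, 8433 and 18545 in controls and 5818, 2735 and 867 in mutants, with 9 of 9 lower and none at 0, and neuron markers to 1094, 1156 and 1557 in controls and 1572, 466 and 528 in mutants, with 6 of 6 lower and none at 0. The cardiomyocyte sums overlapped between groups, and the neuron sum of mutant 1 lay above all controls. Cartilage markers summed to 4454, 4330 and 4149.9 in controls and 5264, 4378 and 4861 in mutants, with 5 of 6 higher and *Matn1* at 0. The part of these lists in the differences of *Fn1* and *Postn* was not tested.

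*Vcan* was at 10866, 11054 and 11632 in controls and 9221, 11871 and 14683 in mutants, where the values spread to both sides of the controls. *Tnc* was at 1149, 1039 and 1203 in controls and 1415, 1079 and 1254 in mutants (0.14 ± 0.23, 95% interval). *Eln* was at 5879, 3592 and 3699.99 in controls and 4708, 4357 and 4063 in mutants (0.03 ± 0.39). In *Eln* control 1 stood alone above the other 5 libraries.

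*Fbn1* was at 5804, 5225 and 5909 in controls and 4958, 5573 and 6051 in mutants, and *Fbn2* at 11765, 11921 and 12502 in controls and 10479.6, 11695 and 12840.3 in mutants. *Lox* was at 4376, 4186 and 4715 in controls and 3581, 4241 and 4660.1 in mutants, *Fbln5* at 1275, 629 and 700.3 in controls and 836, 832 and 675 in mutants, and *Mfap4* at 3645, 3407 and 2934 in controls and 3593, 3104 and 3219.8 in mutants. Groups overlapped in all 5. *Fbn2*, *Fbn1*, *Mfap4*, *Lox* and *Fbln5* differed by −0.05 ± 0.17, −0.03 ± 0.18, −0.007 ± 0.20, −0.10 ± 0.21 and −0.09 ± 0.54 on the log2 scale, with 95% intervals that were narrow for *Fbn1*, *Fbn2* and *Mfap4* and wide for *Fbln5*.

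By limma, edgeR and DESeq2 alike, 0 members were called in the Sox9Cre comparison, and each had 0 members higher and 2 lower at an unadjusted p under 0.05, against 2.81% of all genes that were lower at that level by limma. Over all 14293 genes, edgeR had 373 lower at that level and DESeq2 257. The median log2 difference was −0.04 for the 10 genes and 0.0013 for all genes.

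**Figure D5:**
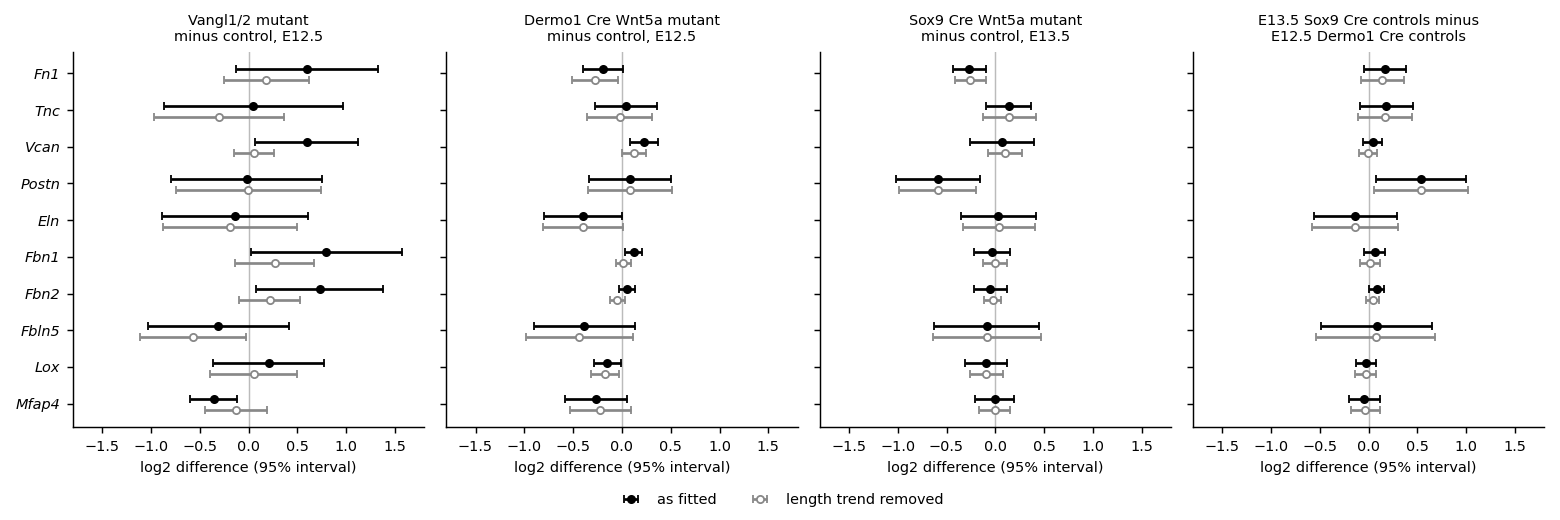
Log2 differences (x axis, with 95% intervals from limma) of the 10 genes in the 3 mutant comparisons and between the controls of the Wnt5a experiments, as fitted (black) and with the transcript length trend removed (grey, open). In the Vangl1/2 panel the values of Fbn1, Fbn2, Fn1 and Vcan move from 0.59 to 0.80 down to 0.05 to 0.27, while in the Sox9Cre panel Fn1 stays at −0.26 and Postn at −0.59.

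Whether a gene responded differently in 2 experiments was tested as a difference of the mutant effects. Between the Dermo1Cre and Sox9Cre experiments the largest member difference was that of *Postn*, at 0.67 (Dermo1Cre minus Sox9Cre, SE 0.31, unadjusted p = 0.0494, adjusted p = 0.955). Unadjusted p-values under 0.05 were found for 5.20% of all genes there. *Fn1* had its lower mutant means in both *Wnt5a* experiments and a higher one in the Vangl1/2 experiment, in which all 3 mutants were above the control mean. The effect on *Fn1* differed by −0.78 between Dermo1Cre and Vangl1/2 lungs (SE 0.37, unadjusted p = 0.0535, adjusted p = 0.393) and by 0.84 between Vangl1/2 and Sox9Cre lungs (SE 0.36, unadjusted p = 0.0369, adjusted p = 0.302), a contrast added after the data were seen. That of *Fbn2* differed by −0.67 between Dermo1Cre and Vangl1/2 lungs (adjusted p = 0.393). Of the 10 members, 0 passed in any of these contrasts by limma or by edgeR, beside 0%, 0.00683% and 0.00681% of all genes by limma. At an unadjusted p under 0.05, limma had 1 member between Dermo1Cre and Sox9Cre, 0 between Dermo1Cre and Vangl1/2 and 3 between Vangl1/2 and Sox9Cre, where 12.6% and 16.5% of all genes lay under it in the last 2, and edgeR had 0, 0 and 1. Over all genes, edgeR had 450 positive and 290 negative differences at that level between Dermo1Cre and Sox9Cre, of 14629. Between Dermo1Cre and Vangl1/2 it had 988 and 811 of 14651, and between Vangl1/2 and Sox9Cre 803 and 1639 of 14693. Without Vangl1/2 control replicate 2, 5 members passed in the contrast of Dermo1Cre with Vangl1/2, among them *Fn1* at −1.19 and *Fbn2* at −1.01, beside 31.4% of all genes. In the contrast of Vangl1/2 with Sox9Cre 5 passed as well, beside 33.8%, and the length trend was not removed in either fit.

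The Sox9Cre controls at E13.5 were set against the Dermo1Cre controls at E12.5, with all libraries scaled jointly. These are the same libraries that served as controls above, and the stage cannot be told apart from the Cre line and the experiment. *Postn* had the largest difference. It was at 1679, 2022 and 2934 at E12.5 and 4072, 2529 and 2920.04 at E13.5. The highest library at E12.5 lay above 2 of the 3 at E13.5. The log2 difference was 0.53 (SE 0.21, unadjusted p = 0.0275, adjusted p = 0.539).

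*Fbn2* was at 11849, 11771 and 12102 at E12.5 and 12301, 12442 and 13033 at E13.5. All late libraries were above all early ones, by only 0.08 on the log2 scale (unadjusted p = 0.0392, adjusted p = 0.566), as they were for 6.71% of all genes. The other 8 genes overlapped between stages, with differences from −0.14 for *Eln* to 0.18 for *Tnc*. *Eln* was at 4873, 4031 and 6059 at E12.5 and 6147, 3749 and 3857 at E13.5, a similar range at both stages. *Lox*, *Vcan* and *Fbn1* differed by −0.03 ± 0.11, 0.04 ± 0.097 and 0.06 ± 0.11 (95% interval), the narrowest intervals after *Fbn2*.

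Limma called 0 of the 10 members between these controls and 0.119% of 14335 genes. At an unadjusted p under 0.05 it had 2 members higher, against 4.63% of all genes, and edgeR and DESeq2, which called 0 members as well, had 2 and 1. Over all 14335 genes, edgeR had 665 higher at that level and DESeq2 414. With the Vangl1-/- controls in place of the Dermo1Cre controls as the E12.5 group, *Postn* was called at 1.49 (adjusted p = 0.0423), as were 3.10% of all genes, with *Tnc* at 1.33 (adjusted p = 0.0718) and *Fn1* at 1.10 (adjusted p = 0.0717). With all 18 libraries scaled jointly, *Postn* was at 808, 1721 and 950 in those controls. *Tnc* was at 357, 947 and 301 and *Fn1* at 5368, 11143 and 4271. For each of these genes control 2 lay nearest to the Sox9Cre controls.

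How much replicates varied differed from gene to gene. Among the Dermo1Cre controls the coefficient of variation was 1.49% for *Fbn2*, 2.64% for *Fbn1*, 3.13% for *Lox*, 4.76% for *Vcan* and 4.81% for *Mfap4*. It was 20.4% for *Eln*, 27.4% for *Fbln5* and 29.4% for *Postn*. The same 3 genes were the most variable of the 10 among the Sox9Cre controls, at 29.4%, 40.8% and 25.1%.

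Over the 12 libraries of the *Wnt5a* experiments, which span 2 stages and 4 groups, *Eln* and *Fbln5* varied together with a Pearson r of 0.938 on the log2 scale. Among 14616 genes *Fbln5* was the gene most like *Eln*, and *Eln* the gene most like *Fbln5*. After *Fbln5*, the genes most like *Eln* were *Tmem30b* (r = 0.928) and *Sema6b* (r = 0.916), and after *Eln* those most like *Fbln5* were *Rhoj* (r = 0.925) and *Srsf12* (r = 0.903). *Mfap4* had r = 0.785 with *Eln* and 0.756 with *Fbln5*.

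*Vcan*, *Fbn1* and *Fbn2* also varied together, with r = 0.796 between *Vcan* and *Fbn1*, 0.782 between *Vcan* and *Fbn2* and 0.805 between the fibrillins. They are the members with the longest transcripts, at 12.43, 11.97 and 11.04 kb, and *Mfap4* has the shortest, at 1.72 kb. The length trend was not removed from these values, and its part in them was not tested. The genes most like *Vcan* were *Son* (r = 0.985), *Cbx5* (r = 0.981) and *Mll1* (r = 0.98), none of which encodes a matrix protein. Values between these genes and *Eln*, *Fbln5* and *Mfap4* were negative, at −0.482 for *Vcan* with *Eln* and −0.633 for *Vcan* with *Mfap4*. They were weaker for *Fbn1*, at −0.186 with *Eln*, −0.109 with *Fbln5* and −0.474 with *Mfap4*. *Fbn2* was at −0.298 with *Eln*, −0.211 with *Fbln5* and −0.376 with *Mfap4*. With group means removed, *Vcan* stayed negative, at −0.335 with *Eln* and −0.523 with *Mfap4*. *Fbn1* was then at 0.088 with *Eln*, 0.108 with *Fbln5* and −0.303 with *Mfap4*. *Postn* was then at 0.813 with *Eln* and 0.865 with *Fbln5*, above *Mfap4* at 0.715 and 0.693. *Lox* was then at 0.783 with *Fbn1*, 0.775 with *Fbn2* and 0.599 with *Vcan*. With group means kept, *Postn* was most like *Col8a2* (r = 0.97), *S100a10* (r = 0.936) and the proteoglycan gene *Dcn* (r = 0.93). *Fn1* was most like *Ptk2b* (r = 0.929), *Sphkap* (r = 0.925) and *Fbxo32* (r = 0.921). *Fn1* had r = 0.649 with *Postn* and 0.647 with *Lox*. Differences between groups enter each of these values but those with group means removed. Depth, scaling and any trend with transcript length enter all of them, and they are descriptions without a test.

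The other genes of these pathways were read from a list of 51, with fibulins, latent TGF-β binding proteins, lysyl oxidases, emilins, tenascins, hyaluronan-binding partners of versican, matrix proteases and integrins. By limma, 0 of them passed the adjusted test in any comparison. In the Vangl1/2 experiment 49 were tested, of which 6 were higher and 1 was lower by limma at an unadjusted p under 0.05, against 12% and 8.56% of all genes, with a median log2 difference of 0.13. These genes were fitted only with control 2 included and with the transcript length trend left in. The smallest p-values there were those of *Tgfb2*, a TGF-β ligand stored in fibrillin matrix (0.39, adjusted p = 0.233), of *Itga8*, which pairs with the β1 integrin chain to bind fibronectin (0.54, adjusted p = 0.233), and of *Itgav*, another integrin chain for RGD ligands (0.55, adjusted p = 0.233). *Itga8* was at 2069.7, 2918 and 1693 in controls and 3303, 3111 and 3064 in mutants, with control 2 again nearest to the mutants.

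In the Dermo1Cre experiment 50 of the 51 were tested, with 2 higher and 8 lower at that level, against 5.42% and 4.76% of all genes, and a median of −0.02. *Tgfbi*, a fasciclin-domain relative of periostin, was at 4510.3, 4059 and 4582 in controls and 3312, 3858 and 3757 in mutants (−0.27, SE 0.066, adjusted p = 0.269). *Mfap2*, a microfibril glycoprotein, was at 2749.7, 2864 and 2729.8 in controls and 2255, 2651 and 2389 in mutants (−0.20, adjusted p = 0.344). *Itga9*, an integrin chain that binds tenascin C, was at 1962, 1884 and 2089.7 in controls and 1749.6, 1827 and 1672 in mutants (−0.18, adjusted p = 0.344). In all 3 the mutants lay below every control, as they did for 7.92% of all genes.

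In the Sox9Cre experiment 50 were tested, with 2 higher and 6 lower, against 1.08% and 2.81% of all genes, and a median of −0.03. The smallest p-values were those of *Tnxb*, a tenascin, at 73.3, 50.8 and 79.8 in controls and 38.1, 39.2 and 32.8 in mutants (−0.85, unadjusted p = 0.00341), and of *Emilin2*, an elastin microfibril interfacer, at 256, 295 and 438 in controls and 219, 213 and 195 in mutants (−0.62, unadjusted p = 0.00815), both with adjusted p = 1.0. *Emilin2* was lower in every mutant than in any control, as was *Tnxb* and as were 4.36% of all genes. *Acan*, the cartilage proteoglycan, was at 14.9, 8.96 and 4.99 in controls and 24.4, 17.1 and 27.7 in mutants, which rests on few reads (1.27, adjusted p = 1.0). Between the controls of the *Wnt5a* experiments 50 were tested, with 2 higher and 3 lower at E13.5, against 4.63% and 3.70% of all genes, and *Tgfb2* (−0.12), the link protein gene *Hapln1* (−0.22) and *Ltbp1*, which tethers latent TGF-β to microfibrils (0.20), had the smallest p-values (adjusted p = 0.32, 0.37 and 0.537).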

How the data were processed

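RNA of 18 embryonic mouse lung libraries was analysed, 3 per group. The members and the gene lists were chosen with earlier results of these data known. The authors deposited, for each experiment, a table of 23420 genes with a signal per library, which is the gene count scaled by the library's size factor, besides their mean, and log2 fold changes and p-values of their own comparison, which were not used. The submitters' processing notes name Trim Galore, HISAT2, featureCounts, DESeq2 and the build mm10. Their versions are not given in the sources used here.

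All values (100%) were whole multiples of 1 step per library within 0.01 reads (largest deviation 4.81e-05), and the steps matched DESeq2's median-of-ratios factors (0.952 to 1.07), so reads could be recovered. The tables held 27 names turned to dates and 2 repeated symbols, and 92.9% of symbols matched GENCODE release 21, which gave positions and transcript lengths.

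A gene was tested where 3 or more libraries reached 10 normalized counts. The test was limma (3.58.1, R 4.3.3) on log2(normalized count + 1) with a mean-variance trend, with Benjamini-Hochberg adjustment over all genes tested and a threshold of 0.05. Fold changes on this scale are understated for low genes. Contrasts between experiments used recovered reads that were scaled jointly. Alternatives were edgeR (4.0.16, quasi-likelihood, TMM) and DESeq2 (1.42.0) on recovered reads, TMM scaling, a pseudocount of 5, no filter, a replicate block, removal per library of a spline on transcript length (5 degrees of freedom) and leaving out each library. The limma fit was also run on simulated data with known fold changes, and the share it recovered is not reported here. Named were all 10 members, of the 51 partner genes those past the threshold or else the 3 with the smallest p per comparison, the targeted genes, and for 5 members the 3 most similar genes by Pearson r. Marker sums add the normalized counts of a list, and 11 lists were computed. Protein sequences were not analysed here.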

Additional observations from a re-analysis of the deposited data

How the results depend on the processing

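Replicate numbers were not taken as pairs, since same-numbered libraries had correlations of their deviations of 0.30, 0.05 and 0.01 (Vangl1/2), 0.07, −0.07 and −0.22 (Dermo1Cre) and 0.05, 0.13 and −0.12 (Sox9Cre), and in no experiment was every library most like its own number. With the replicate block, the genes called went from 1 to 0 (Vangl1/2), 2 to 16 (Dermo1Cre), 17 to 33 (between controls), and 1 to 0 in both contrasts of Vangl1/2 with a *Wnt5a* experiment, and 0 members were called in each. With DESeq2 they were 11, 101, 9 and 107 for Vangl1/2, Dermo1Cre, Sox9Cre (0 by limma) and the controls, with 1 member in Dermo1Cre. With the length trend removed they were 1 for Dermo1Cre and 9 between controls, and without the filter 10 between controls. With the Vangl1-/- controls as the E12.5 group they were 445, 1 of them a member. Without Vangl1/2 control 2 and with length removed, 1506 genes and 2 members were called.

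With each library left out in turn, the genes called ranged from 0 to 6183 (Vangl1/2), 0 to 54 (Dermo1Cre), 0 to 13 (Sox9Cre), 0 to 91 (between controls), 0 to 66 (Dermo1Cre against Sox9Cre), 1 to 4594 (Dermo1Cre against Vangl1/2) and 1 to 4972 (Vangl1/2 against Sox9Cre), and the members called from 0 to 8, 0 to 1, 0 to 0, 0 to 0, 0 to 0, 0 to 5 and 0 to 5. The 6183, 4594 and 4972 came without Vangl1/2 control 2, the 54 without Dermo1Cre mutant 1, the 13 and 66 without Sox9Cre mutant 1, and the 91 without Dermo1Cre control 3. The cause was not tested.

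Of the member log2 differences under the alternatives, 539 kept their direction and side of the threshold, 15 passed it and 46 changed sign. In the contrasts between experiments, only *Postn*, *Fn1* and *Fbn2* were counted. None of the 46 had been called in the main fit. Among them, *Eln* in Vangl1/2 was called by limma after its sign changed without control 2 (0.29, adjusted p = 0.04755). In Vangl1/2, *Tnc* was at −0.14 by edgeR, −0.13 by DESeq2 and −0.31 with length removed. With length removed and without control 2, *Postn* was at 0.33, *Eln* at 0.23 and *Mfap4* at 0.038. In Dermo1Cre, length removal gave *Tnc* −0.025 and *Fbn2* −0.050. In Sox9Cre, *Eln* was at −0.0058 by edgeR and −0.0059 by DESeq2. Between controls, *Vcan* was at −0.0097 with length removed, and *Eln* was at 0.39 and *Lox* at 0.51 against the Vangl1-/- controls.

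Leaving out 1 library changed the sign of others. In Vangl1/2 the ranges were −0.27 to 0.56 for *Tnc*, −0.24 to 0.31 for *Postn*, −0.41 to 0.29 for *Eln* and −0.52 to 0.099 for *Fbln5*. In Dermo1Cre they were −0.11 to 0.17 for *Tnc* and −0.10 to 0.30 for *Postn*. In Sox9Cre they were −0.096 to 0.24 for *Vcan*, −0.094 to 0.26 for *Eln*, −0.10 to 0.043 for *Fbn1*, −0.12 to 0.023 for *Fbn2*, −0.28 to 0.23 for *Fbln5*, −0.18 to 0.0083 for *Lox*, −0.095 to 0.061 for *Mfap4* and −0.028 to 0.057 for the log2 ratio of *Fbn1* to *Fbn2*. Between controls they were −0.37 to 0.013 for *Eln*, −0.23 to 0.29 for *Fbln5*, −0.072 to 0.011 for *Lox* and −0.11 to 0.046 for *Mfap4*.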

Other observations

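Marker lists in the experiments where they were not described above are given as counts of genes with a higher or lower mean in mutants, without a test. Endothelium markers were lower for 7 of 7 genes in the Dermo1Cre and 6 of 7 in the Sox9Cre experiment, and for 3 of 7 in the Vangl1/2 experiment. Macrophage markers were lower for 5 of 5 in both *Wnt5a* experiments and for 2 of 5 in Vangl1/2 lungs. Cartilage markers were higher for 6 of 6 genes in Dermo1Cre mutants and 5 of 6 in Vangl1/2 mutants, with *Matn1* at 0 in most libraries. Glia markers were higher for 4 of 5, 2 of 5 and 3 of 5 in the Dermo1Cre, Sox9Cre and Vangl1/2 mutants. Erythroid markers were higher for 3, 0 and 1 of 4 in the same order. *Hba-a1*, also on that list, was at 0 in all 18 libraries, while *Hbb-y* was between 15567 and 41665, and *Hba-a1* was left out of these counts. Neuron markers were higher for 6 of 6 in Vangl1/2 mutants. Lung epithelium markers were higher for 5 of 9 in Sox9Cre and 3 of 9 in Vangl1/2 mutants. Lung mesenchyme markers were lower for 7 of 9 in Dermo1Cre and 3 of 9 in Sox9Cre mutants. Mesothelium markers were higher for 3 of 5 in Dermo1Cre and 4 of 5 in Vangl1/2 mutants, and cardiomyocyte markers for 4 of 9 in Vangl1/2 mutants. Smooth muscle markers were lower for 6 of 7 in Vangl1/2 and 4 of 7 in Sox9Cre mutants.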
